A study of Mus musculus with 38 samples.

Results

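The Reg genes encode small secreted proteins with a C-type lectin fold. They were examined here as the rows of the deposited gene count tables whose gene name is Reg1, Reg2, Reg3a, Reg3b, Reg3d, Reg3g or Reg4, which gave 7 of the 46078 genes counted. The libraries were made from isolated intestinal epithelial cells of C57BL/6 mice, 1 animal per library, while the series text speaks of colon tissue. KO animals carried a floxed Hk2 allele, the gene of hexokinase 2, together with Cre recombinase under the Villin promoter, which is active in epithelial cells of small intestine and colon. WT animals were littermates labelled as homozygous for the floxed allele, which both genotypes thus share, and the 2 genotypes were housed together. The 6 groups were WT (n = 4) and KO (n = 5) without treatment, called day 0, WT (n = 7) and KO (n = 8) on day 3, and WT (n = 7) and KO (n = 7) on day 7. Animals of days 3 and 7 were males of 10 to 12 weeks given 1.5% (w/v) dextran sodium sulfate (DSS), a polymer that damages the colonic epithelium, in their drinking water. Untreated mice of 9 to 11 and of 86 to 92 weeks are named in the labels for basal phenotyping, and the age of the day 0 animals is not given.

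As background, REG3G and REG3B are bactericidal lectins that enterocytes and Paneth cells release into the mucus. REG3G binds peptidoglycan of Gram-positive bacteria, and REG3B acts on Gram-negative bacteria. Their genes are induced by interleukin 22 through the transcription factor STAT3 and by signals that pass through the adaptor MYD88. Reg1 and Reg2 are best known as genes of the exocrine pancreas, and Reg4 as a gene of secretory cells of the colonic crypt.

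Each library held 10.5 to 60.6 M counts. All 9 day 0 libraries carry another name prefix than the 29 libraries of days 3 and 7, so that day 0 and library series cannot be told apart. Hk2, counted over the whole gene, was at 347 ± 90.5 CPM (counts scaled to library size with TMM factors, mean ± SD) in WT and 76.4 ± 31.8 CPM in KO on day 0, at 173 ± 47.1 CPM in WT and a mean of 144 CPM (range 68.4 to 435 CPM) in KO on day 3, and at 332 ± 127 and 140 ± 71.5 CPM on day 7. The library labelled d3_KO_345 held 435 CPM of Hk2, above the 68.4 to 128 CPM of the other 7 KO libraries of day 3, and values of day 3 KO are also given without it where the call changed or the fold moved by over 1.5 times. Mitochondrial-genome genes took 61.7% of the counts of d0_KO_32 and 41.7% of those of d3_WT_381, against 6.25 to 26.6% elsewhere. The 7 epithelial marker genes examined, Epcam and Vil1 among them, were detected in every group, at a summed level of 7748 to 14053 CPM per library. Nothing in the labels says more of how the animals of a group were processed, so p-values measure the spread between these libraries.

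Of the genes, 6 lie in a cluster on chromosome 6 of the mouse genome (coordinates as in the deposited files, build GRCm38 per the submitters' processing notes), and Reg4 lies on chromosome 3 at chr3:98222156-98236748. Along chromosome 6 the order is Reg3b (chr6:78370885-78373466), Reg3d (chr6:78375874-78378865), Reg3a (chr6:78380709-78383839), Reg2 (chr6:78405155-78408097), Reg1 (chr6:78425983-78428666) and Reg3g (chr6:78466269-78468872). Reg3d and Reg3g are on the minus strand and the others on the plus strand. The 250 bases before the start of the 4 Reg3 genes are shown because these 4 genes rose together during DSS. They are RefSeq windows of GRCm38.p6, written 5′ to 3′ on the strand of the gene, and capitals mark matches to the STAT motif TTCNNNGAA and to the TATA box letters TATAAAA. Their positions are chr6:78370635-78370884 for Reg3b, chr6:78468875-78469124 for Reg3g, chr6:78380459-78380708 for Reg3a and chr6:78378866-78379115 for Reg3d. Gene starts and distances to them are those of RefSeq here, and the Reg3g window does not directly adjoin the deposited Reg3g coordinates above.
Reg3b: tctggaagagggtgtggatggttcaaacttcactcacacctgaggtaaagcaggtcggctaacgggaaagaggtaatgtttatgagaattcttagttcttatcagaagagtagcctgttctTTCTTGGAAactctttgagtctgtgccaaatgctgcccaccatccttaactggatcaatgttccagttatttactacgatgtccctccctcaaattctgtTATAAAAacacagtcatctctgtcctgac
Reg3g: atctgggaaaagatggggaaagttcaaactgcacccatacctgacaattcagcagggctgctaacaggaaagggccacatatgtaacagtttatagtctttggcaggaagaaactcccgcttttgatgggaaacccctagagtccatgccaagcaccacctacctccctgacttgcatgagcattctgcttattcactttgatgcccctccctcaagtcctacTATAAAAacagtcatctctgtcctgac
Reg3a: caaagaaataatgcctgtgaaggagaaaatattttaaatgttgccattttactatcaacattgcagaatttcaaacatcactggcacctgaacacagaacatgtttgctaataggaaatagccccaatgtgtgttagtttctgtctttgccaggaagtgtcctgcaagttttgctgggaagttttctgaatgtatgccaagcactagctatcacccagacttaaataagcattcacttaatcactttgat
Reg3d: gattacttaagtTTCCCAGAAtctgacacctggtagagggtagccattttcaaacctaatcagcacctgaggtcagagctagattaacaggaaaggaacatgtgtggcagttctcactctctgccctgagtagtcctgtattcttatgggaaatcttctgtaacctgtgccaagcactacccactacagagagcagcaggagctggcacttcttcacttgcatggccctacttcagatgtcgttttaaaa
The windows of Reg3b and Reg3g end in the same 20 bases, acagtcatctctgtcctgac, directly before the start of the gene, whereas the longest run shared by any other pair of the 7 windows was 6 to 12 bases. TATAAAA, searched on both strands, was found 29 bases before the start of Reg3b and 27 bases before that of Reg3g, and 30 bases before those of Reg1 and Reg2. It was present in 4 of the 7 windows and in 4.98% of the 32851 windows of this length in the RefSeq table. The STAT motif reads the same on both strands and was found in the windows of Reg3b (TTCTTGGAA, 129 bases before the start) and Reg3d (TTCCCAGAA, 238 bases before it), 2 of 7, and in 7.02% of all windows. The C/EBP letters TTGCNNAA were found in Reg3a and Reg2 (9.56% of all windows), and the NF-kB letters, GGGA and CC with any 4 bases between them, in Reg3g (17.6% of all windows), on either strand. No 2 of these matches overlapped, and a match of letters in such a short window is a description, not a binding site. When whole windows were aligned, Reg3b and Reg3g were identical at 70.0% of the aligned bases. Reg3a and Reg3g were identical at 71.9%, and Reg3b and Reg3a at 69.9%.

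Reads that fit more than 1 gene could blur the counts, so shared sequence was searched. Of all 50-base runs in the annotated transcripts of Reg3a, Reg3b, Reg3d, Reg3g and Reg4, 0 occur in a transcript of another gene. For Reg1 and Reg2, 3.65% and 11.3% of the runs do, in each case in genes outside the family. No exon of another gene in the count tables overlaps an exon of a member on either strand (0 genes for each of the 7).

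**Figure D1:**
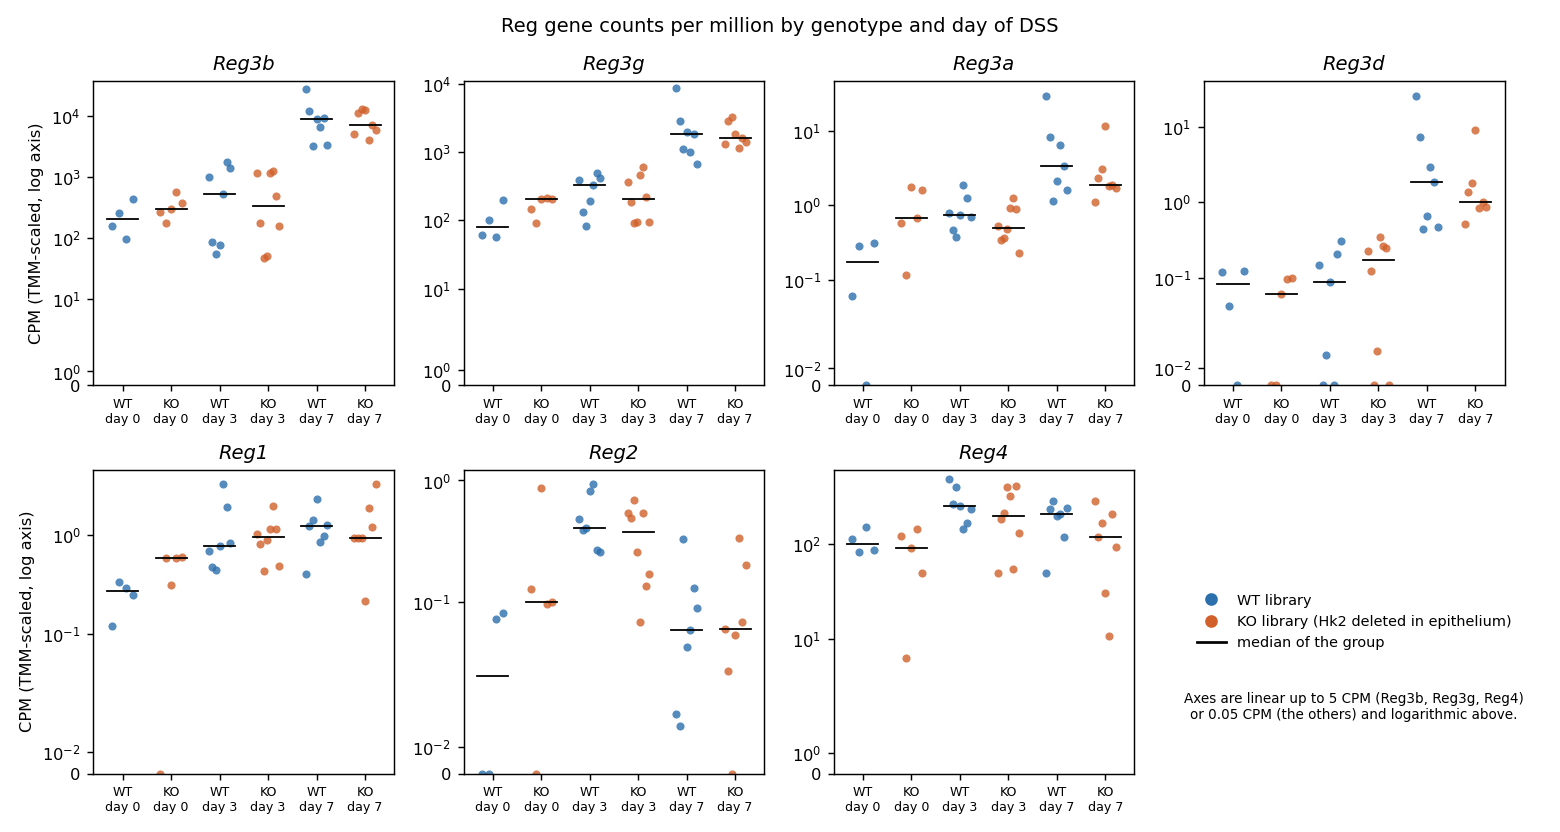
CPM (y, log axis above the stated linear range) of the 7 Reg genes in each library, by genotype and day (x); points are libraries and bars are group medians. Reg3b, Reg3g, Reg3a and Reg3d are highest on day 7 in both genotypes, and Reg2 is highest on day 3 in WT.

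The first question was how the family changed between day 3 and day 7 of DSS. In both genotypes the 4 Reg3 genes rose, by 8.59- to 44.6-fold in WT and by 5.20- to 14.6-fold in KO, while Reg1 and Reg4 did not pass the test and Reg2 fell in WT. In edgeR's quasi-likelihood test, with Benjamini-Hochberg adjustment over all genes, 4 of the 7 members tested rose in WT and 4 of the 6 tested in KO at an adjusted p under 0.05. Of all genes tested, 10.6% rose in WT and 10.5% in KO. The groups did not overlap for 3 of the members that rose in each genotype, Reg3b, Reg3g and Reg3d. Higher levels without overlap were found for 2.95% of all genes in WT and 3.00% in KO. The median log2 fold change of the members tested was 3.10 in WT and 2.59 in KO, against 0.01 and -0.01 over all genes tested.

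Reg3b was the most abundant member. In WT it ranged from 54.8 to 1794 CPM on day 3 with a median of 534 CPM, and from 3275 to 27367 CPM on day 7 with a median of 8925 CPM. Every day 7 library was above every day 3 library. In KO the day 3 libraries ranged from 47.8 to 1254 CPM with a median of 332 CPM, and the day 7 libraries from 4015 to 13070 CPM with a median of 7125 CPM. Here too the days did not overlap. The log2 fold change was 3.80 ± 0.81 (SE; adjusted p = 0.0043, edgeR) in WT and 3.87 ± 0.70 (adjusted p = 0.00093, edgeR) in KO, and without the library labelled d3_KO_345 the KO value was 4.10 ± 0.74. Among all genes of a library, Reg3b ranked 24th to 3515th by CPM in WT on day 3 and 2nd to 17th on day 7.

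Day 3 was the time at which libraries of 1 group differed most in Reg3b. In WT 3 libraries held 54.8 to 87.4 CPM and 4 held 534 to 1794 CPM, with none between. In KO 2 libraries held 47.8 and 50.7 CPM and 6 held 160 to 1254 CPM. The highest library was 32.8 times the lowest in WT and 26.2 times in KO on day 3, and 8.36 and 3.26 times on day 7.

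Reg3g, whose protein keeps Gram-positive bacteria away from the epithelial surface, followed Reg3b at a lower level. WT libraries held 81.9 to 494 CPM (median 323 CPM) on day 3 and 657 to 8481 CPM (median 1854 CPM) on day 7. KO libraries held 90.2 to 605 CPM (median 202 CPM) on day 3 and 1130 to 3272 CPM (median 1612 CPM) on day 7. In both genotypes all day 7 libraries stood above all day 3 libraries. The log2 fold change was 3.12 ± 0.57 (adjusted p = 0.0014, edgeR) in WT and 2.81 ± 0.43 (adjusted p = 0.00029, edgeR) in KO. Without d7_WT_356, the highest Reg3g library, the WT value was 2.43 and still passed.

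Reg3a and Reg3d were present at far lower levels. Reg3a ranged in WT from 0.374 to 1.86 CPM on day 3 (median 0.729 CPM) and from 1.12 to 29.5 CPM on day 7 (median 3.37 CPM). In KO it ranged from 0.229 to 1.24 CPM (median 0.499 CPM) and from 1.09 to 11.7 CPM (median 1.84 CPM). The 2 days overlapped in both genotypes at their edges. The log2 fold change of Reg3a was 3.10 ± 0.68 in WT (adjusted p = 0.005, edgeR) and 2.38 ± 0.50 in KO (adjusted p = 0.003, edgeR). Without d7_WT_356, the library with the highest Reg3a, the WT value was 2.13, and without d7_KO_420 the KO value was 1.63. Each of these 2 still passed the test.

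Reg3d had no counts in 2 WT and 2 KO libraries of day 3. Its WT levels were 0 to 0.31 CPM on day 3 (median 0.0883 CPM) and 0.441 to 25.7 CPM on day 7 (median 1.88 CPM). In KO they were 0 to 0.344 CPM (median 0.176 CPM) and 0.512 to 9.08 CPM (median 1.02 CPM). Day 7 was above day 3 without overlap in both genotypes. The log2 fold change was 5.48 ± 1.06 (adjusted p = 0.0022, edgeR) in WT and 3.77 ± 0.76 (adjusted p = 0.0021, edgeR) in KO, and 4.20 in WT without d7_WT_356 and 2.75 in KO without d7_KO_420. Summed over libraries, WT day 7 held 1809 Reg3d counts and WT day 3 held 41, so that the day 3 level rests on few reads.

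**Figure D2:**
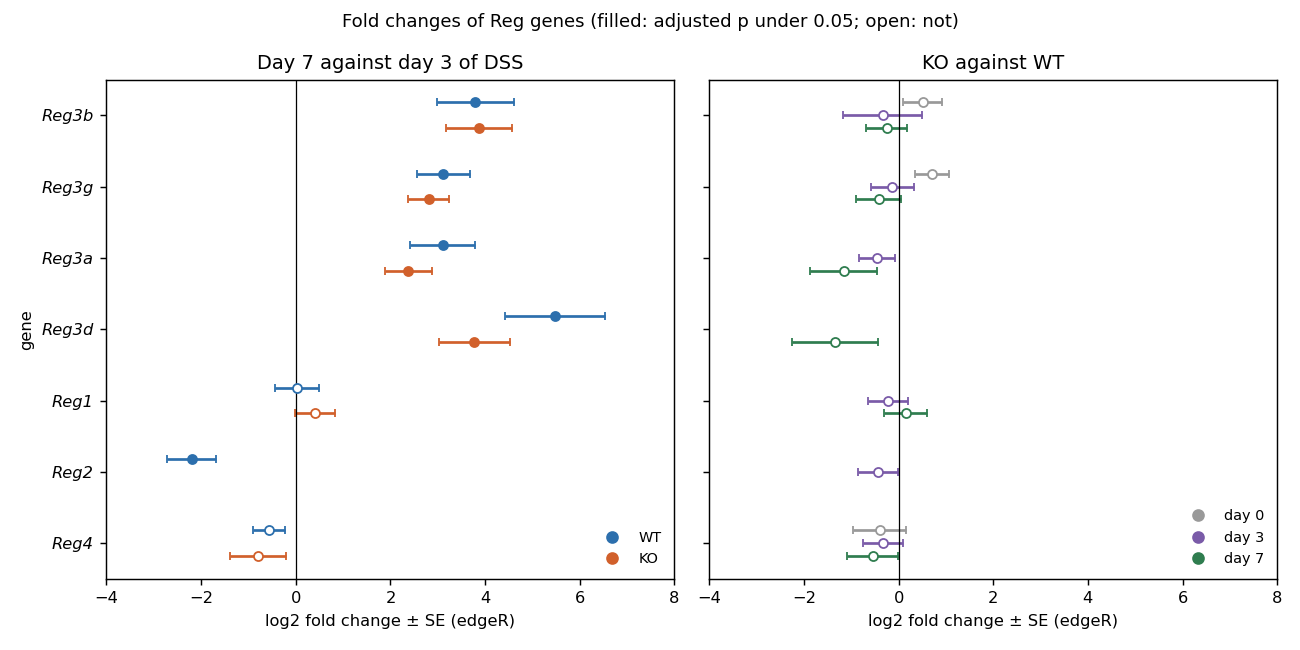
Log2 fold change with its standard error (x) of each Reg gene (y) for day 7 against day 3 within each genotype (left) and for KO against WT on each day (right), from edgeR; filled points passed an adjusted p of 0.05. The 4 Reg3 genes are to the right of 0 in both genotypes on the left, and no point on the right is filled.

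Reg2, a gene known from pancreatic acinar cells, went the other way at very low counts. WT libraries held 0.258 to 0.932 CPM on day 3 and 0.0178 to 0.331 CPM on day 7, with overlap. It fell by 2.20 ± 0.52 on the log2 scale in WT (adjusted p = 0.0077, edgeR; -2.97 without d7_WT_370), and 8.70% of all genes tested were lower in that comparison. KO libraries held 0.0687 to 0.685 CPM on day 3 and 0 to 0.337 CPM on day 7, under the edgeR filter on low counts. The DESeq2 Wald test gave Reg2 a log2 change of -1.79 ± 0.62 in KO (adjusted p = 0.025). With edgeR and no filter it was not called (adjusted p = 0.066), nor in 5 of the 6 fits without 1 day 7 replicate in which it passed the filter (adjusted p = 0.069 to 0.098). The edgeR fit of all 38 libraries called it in KO (-1.75 ± 0.59, adjusted p = 0.036). Counting on lane 1 alone removed Reg2 and Reg3d from the genes tested in WT, which left 3 members called.

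Reg1, the other acinar gene, held 0.445 to 3.23 CPM in WT on day 3 and 0.4 to 2.30 CPM on day 7. The log2 fold change was 0.03 ± 0.46 (adjusted p = 0.97, edgeR) in WT and 0.41 ± 0.43 (adjusted p = 0.58) in KO. Reg4 held 145 to 490 CPM in WT on day 3 and 50.0 to 284 CPM on day 7, and in KO 49.7 to 410 CPM and 10.8 to 282 CPM. Its log2 fold change was -0.56 ± 0.33 (adjusted p = 0.26, edgeR) in WT and -0.80 ± 0.59 (adjusted p = 0.4) in KO. Both genes overlapped between days in both genotypes. The lowest Reg4 level of WT day 7, 50.0 CPM, was in d7_WT_356, the library with the highest level of all 4 Reg3 genes.

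Markers of other cells moved between the same days. All 8 neutrophil genes of the list, S100a8 and S100a9 among them, were called higher on day 7 in both genotypes, and their summed level per library was 7.97 to 44.5 CPM on day 3 and 151 to 1102 CPM on day 7 in WT, and 13.4 to 152 CPM and 124 to 1832 CPM in KO, where the 152 CPM are those of the library labelled d3_KO_345 and the next day 3 library held 55.1 CPM. Of the 8 immune genes, 7 in WT and 8 in KO were called higher, against 10.6% and 10.5% of all genes. The 2 highest day 7 libraries for Reg3a and Reg3d, d7_WT_356 and d7_KO_420, held 1102 and 1832 CPM of the neutrophil genes, while d7_WT_419 held 1079 CPM of them with 3.37 CPM of Reg3a. Of the 6 posterior Hox genes, a list added after the data were seen, 6 were called lower on day 7 in both genotypes, with summed levels of 119.4 to 436 CPM in WT on day 3 and 22.4 to 154 CPM on day 7, and of 101.5 to 352.9 CPM and 12.1 to 84.3 CPM in KO. Goblet cell genes were called lower for 1 of 8 in WT and 5 of 8 in KO, against 8.70% and 8.83% of all genes. The part of these cells and of gut position in the rise of the Reg3 genes was not tested. In such bulk libraries fewer cells of a type and less RNA per cell cannot be told apart.

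Pancreatic tissue and Paneth cells express several Reg genes. The 10 pancreatic acinar genes together held 5.12 to 19.7 CPM per library on day 3, and 2.08 to 5.11 CPM in WT and 1.11 to 3.98 CPM in KO on day 7. The 1 of them that could be tested was called lower on day 7 in both genotypes. The Paneth genes Defa20, Defa23, Defa26 and Ang5 were at 0 counts in every library, and 12 genes of the list together held 0.103 to 4.86 CPM. On day 7 the counts came from 1 of these 12 genes in each genotype, and the others were at 0. The KO library with the highest Reg3b, d7_KO_368, held 4.17 CPM, all from that 1 gene. The part of Paneth cells in the Reg levels was not tested. Genes of small intestine enterocytes summed to 391 to 1472 CPM. Of these, 4 of the 13 tested were higher on day 7 in WT and 0 of 13 in KO, against 10.6% and 10.5% of all genes.

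The family as a whole took 0.0526 to 0.291% of all counts in WT on day 3 and 0.398 to 3.55% on day 7, and in KO 0.0371 to 0.207% and 0.53 to 1.66%. The highest share, in d7_WT_356, was 3.55% (95% Wilson interval 3.54 to 3.55%), and such intervals cover counting error only. Reg3b and Reg3g together made up 93.8 to 99.7% of the Reg counts on day 7 in WT and 95.7 to 99.7% in KO. On day 3 their part varied from 25.4 to 93.1% in WT and from 26.6 to 96.9% in KO, the rest being mostly Reg4.

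**Figure D3:**
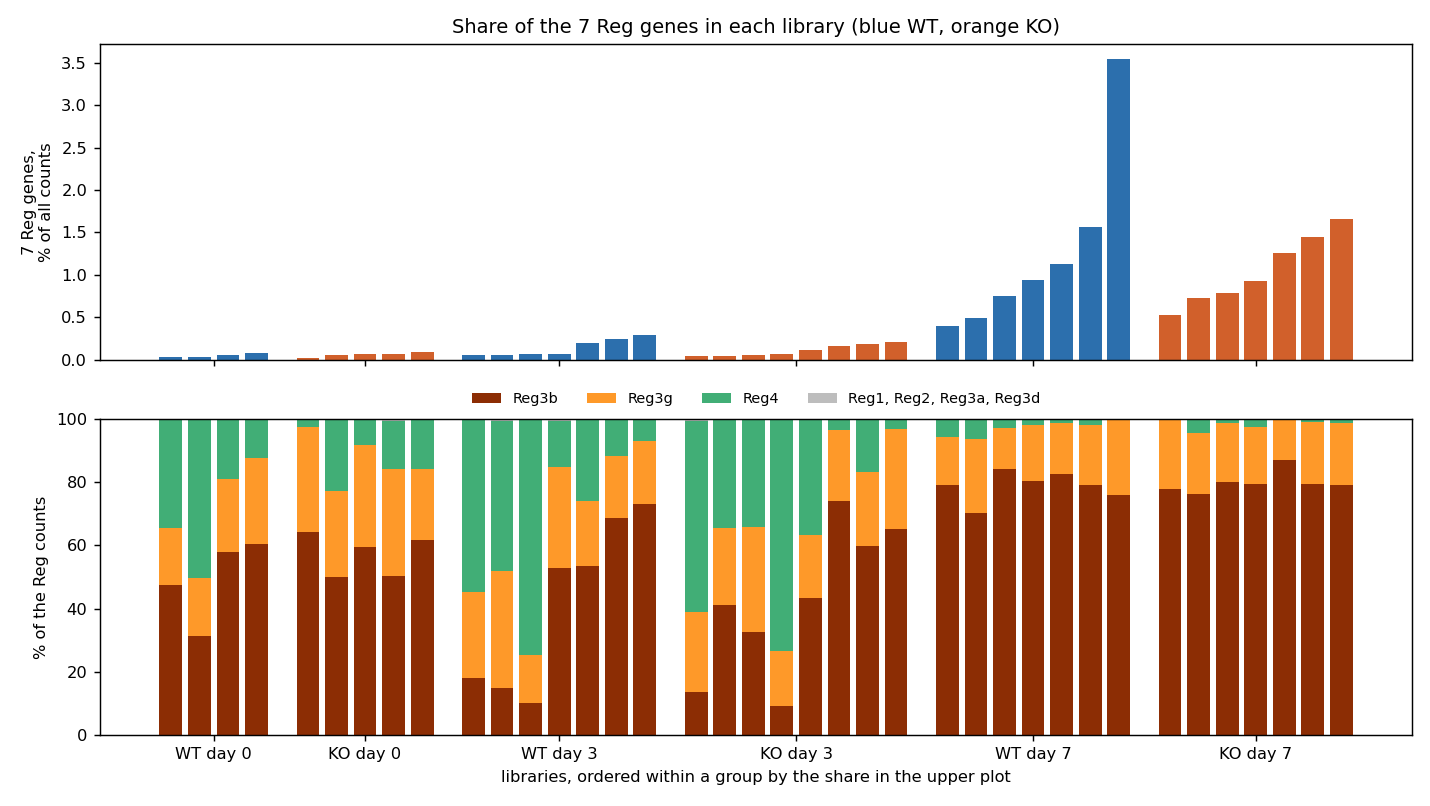
Upper plot: the 7 Reg genes as a percentage of all counts (y) in each library, ordered within groups (x). Lower plot: the percentage of those Reg counts from each gene; on day 7 Reg3b and Reg3g make up at least 93.8% of them in every library.

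Levels of different genes were compared per kilobase of annotated exon. In WT on day 7 the order was Reg3b (13321 ± 10862 CPM per kilobase, mean ± SD, n = 7), Reg3g (1211 ± 1283), Reg4 (186 ± 77.9), Reg3a (8.92 ± 12.0), Reg3d (7.18 ± 11.7), Reg1 (1.56 ± 0.765) and Reg2 (0.144 ± 0.158). Neighbours did not overlap from Reg3b to Reg3g, from Reg3g to Reg4, from Reg4 to Reg3a and from Reg1 to Reg2. Reg3a was above Reg3d in 7 of 7 libraries although their ranges overlapped, and Reg3d was above Reg1 in 4 of 7. On day 3 the order in both genotypes was Reg3b, Reg4, Reg3g, Reg1, Reg3a, Reg2 and Reg3d, and the step from Reg3g to Reg1 was the single one without overlap. Reg3b stood above Reg4 in 4 of 7 WT and 6 of 8 KO libraries on day 3. The order in KO on day 7 was that of WT. In untreated WT mice the order was Reg3b, Reg4, Reg3g, Reg1, Reg3a, Reg3d and Reg2, again with a single gap, between Reg3g and Reg1. Untreated KO mice had gaps between Reg3b and Reg4 and between Reg3g and Reg3a. Per kilobase, Reg3b exceeded Reg3g 4.61-fold (median; 1.11 to 10.1) in WT on day 3 and 12.7-fold (8.31 to 17.9) on day 7, and in KO 5.25-fold (1.48 to 9.06) and 11.3-fold (9.89 to 19.5). The annotated length of Reg3g, 2114 bases against 759 for Reg3b, enters these levels as the divisor.

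The second question was whether deletion of Hk2 in the epithelium changed the family. No member passed the test between KO and WT on any day. Hk2 itself was not called lower on day 3 or day 7, where edgeR called 0 genes lower in KO. A count of 0 members therefore does not show that the deletion left the family unchanged. In edgeR's quasi-likelihood test 0 of 3 members tested on day 0, 0 of 6 on day 3 and 0 of 6 on day 7 had an adjusted p under 0.05, and the same counts of 0 were found at an unadjusted p under 0.05 and with the DESeq2 Wald test. Few genes of any kind were called by edgeR, 0.0335% of those tested on day 0, 0.00647% on day 3 and 0.00642% on day 7. At an unadjusted p under 0.05, edgeR had 1563 of 14944 genes on day 0 and 1218 of 15461 on day 3. On day 7 it had 2017 of 15584. The DESeq2 Wald test called 167 of 13657 genes on day 0, 1 of 28617 on day 3 and 86 of 17962 on day 7. All members overlapped between genotypes on every day. The share of all genes without overlap is not reported here for these comparisons.

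On day 7 Reg3b had a log2 fold change of KO over WT of -0.25 ± 0.43 (SE; adjusted p = 0.82, edgeR) and Reg3g of -0.42 ± 0.47 (adjusted p = 0.7). Reg3a and Reg3d had the most negative values, -1.16 ± 0.71 (adjusted p = 0.48, edgeR) and -1.35 ± 0.91 (adjusted p = 0.52), and these were -0.20 and -0.07 without d7_WT_356. Without d7_KO_420 they were -1.92 (adjusted p = 0.11, edgeR) and -2.38 (adjusted p = 0.13). Without d7_WT_356 Reg3b and Reg3g turned to 0.21 and 0.26. Reg4 was at -0.55 ± 0.54 (adjusted p = 0.66, edgeR) and Reg1 at 0.15 ± 0.46 (adjusted p = 0.9). On day 3 Reg3b was at -0.34 ± 0.83 (adjusted p = 0.91, edgeR), and at -0.57 ± 0.87 without the library labelled d3_KO_345.

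On day 0 the WT libraries held 95.6, 157, 253 and 438 CPM of Reg3b, and the KO libraries 177, 267, 302, 376 and 574 CPM. Reg3g was at 56.2, 60.4, 101 and 196 CPM in WT and at 91.7, 146, 203, 204 and 209 CPM in KO. For Reg3b 1 of 5 KO libraries was above the highest WT library and for Reg3g 3 of 5, and the groups overlapped for both genes. The log2 fold changes were 0.51 ± 0.41 for Reg3b (adjusted p = 0.68, edgeR) and 0.70 ± 0.36 for Reg3g (adjusted p = 0.51). The small intestine enterocyte genes had a median log2 fold change of 1.46 in this comparison, with 0 of 12 tested called. With a score of these genes as covariate, Reg3b was at 0.35 and Reg3g at 0.38, and Reg4 moved from -0.40 to -0.06. Reg4 held 82.1, 87.8, 114 and 153 CPM in WT and 6.33, 49.5, 90.9, 121 and 146 CPM in KO. Its lowest level was in d0_KO_32, the library with the highest mitochondrial share. That library also held the lowest summed level of goblet cell genes on day 0, 8743 CPM, against at least 17993 CPM in WT. The part of either in the Reg4 level was not tested.

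The rise from day 3 to day 7 was also compared between genotypes with an interaction term. Its log2 value, KO minus WT, was 0.09 ± 1.01 for Reg3b, -0.30 ± 0.70 for Reg3g, -0.71 ± 0.85 for Reg3a and -1.70 ± 1.31 for Reg3d. None of the 7 members tested passed in edgeR (adjusted p = 1.0 for each), 0 had an unadjusted p under 0.05, DESeq2 called 0, and 0.00% of all genes were called. For the change since day 0, 0 of 6 members passed on day 7 (0.00531% of all genes, edgeR, and 0 members with DESeq2), with 1 at an unadjusted p under 0.05. This was Reg3a at -3.39 ± 1.29, with an adjusted p of 0.27 in edgeR. Over all genes, edgeR had 2544 of 18830 at an unadjusted p under 0.05 here and 440 of 16371 from day 3 to day 7. DESeq2 called 180 of 14113 genes here and 0 of 30369 from day 3 to day 7.

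The third question was how each DSS day compared with untreated mice, where day and library series cannot be told apart and large parts of all genes were called. From day 0 to day 7, 5 of 6 members tested rose in each genotype, against 27.8% of all genes in WT and 27.3% in KO. Reg3b had a log2 fold change of 5.39 ± 0.73 in WT (adjusted p = 4.3e-05, edgeR) and of 4.61 ± 0.42 in KO (adjusted p = 8.1e-07). Reg3g was at 4.59 ± 0.77 (adjusted p = 0.00026, edgeR) and 3.45 ± 0.33 (adjusted p = 1.2e-06). For both genes the day 7 libraries lay above all day 0 libraries in each genotype. Shares of all genes without overlap are not reported here for comparisons with day 0.

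Reg3a rose by 5.18 ± 1.12 in WT (adjusted p = 0.0016, edgeR), from 0, 0.0605, 0.283 and 0.308 CPM on day 0, and by 1.75 ± 0.67 in KO (adjusted p = 0.04), from 0.117, 0.573, 0.673, 1.59 and 1.75 CPM. The KO day 0 levels overlapped those of KO day 7, and the WT levels did not. The KO call was lost without d0_KO_24, d0_KO_32 or d0_KO_54, each alone (adjusted p = 0.084, 0.074 and 0.082, edgeR). Reg1 rose by 2.21 ± 0.47 in WT (adjusted p = 0.0015, edgeR) and by 1.76 ± 0.69 in KO (adjusted p = 0.044), and the KO call was lost without any 1 of the 5 day 0 KO libraries (adjusted p = 0.051 to 0.099). Reg4 did not pass in either genotype, at 0.77 ± 0.36 (adjusted p = 0.083, edgeR) and 0.63 ± 0.72 (adjusted p = 0.48). Reg3d was at 0, 0.0472, 0.121 and 0.123 CPM in WT and at 0, 0, 0.0624, 0.0961 and 0.0992 CPM in KO on day 0, and both groups of day 7 lay above these. In summed counts, 1809 in WT on day 7 against 9 in WT on day 0, the level of Reg3d per count sequenced was 61.6-fold higher (95% interval 32.4 to 135, counting error only). In KO the summed counts were 655 and 3, a ratio of 44.9 (95% interval 15.3 to 219, counting error only). Of these counts d7_WT_356 held 1155 and d7_KO_420 held 340, and without these libraries, left out after the data were seen, the ratios were 26.2 (13.7 to 57.4) and 24.9 (8.44 to 121).

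From day 0 to day 3, 5 of 6 members tested rose in WT, against 20.4% of all genes, and 1 of 6 in KO, against 22.6%. In WT these were Reg1 (2.17 ± 0.64 on the log2 scale, adjusted p = 0.014, edgeR), Reg2 (3.27 ± 0.68, adjusted p = 0.0014), Reg3a (2.10 ± 0.60, adjusted p = 0.011), Reg3g (1.47 ± 0.49, adjusted p = 0.024) and Reg4 (1.34 ± 0.31, adjusted p = 0.0034). Reg2 had 5 counts in all in WT on day 0, and without d0_WT_46, which held 4 of them, its change was 4.40. The call of Reg3g was lost without d0_WT_31, d0_WT_41 or d0_WT_43, each alone (adjusted p = 0.062, 0.059 and 0.078, edgeR). Reg3b did not pass, at 1.58 ± 0.90 (adjusted p = 0.17, edgeR). In KO the call was Reg1 (1.35 ± 0.53, adjusted p = 0.048, edgeR), which was lost without d0_KO_24, d0_KO_53, d0_KO_54 or d0_KO_60 (adjusted p = 0.093, 0.11, 0.054 and 0.054). It was also lost without the library labelled d3_KO_345 (adjusted p = 0.058, edgeR), when Reg4 was called instead (1.57 ± 0.58, adjusted p = 0.040). Whether the changes of WT and KO from day 0 to day 3 differ was not tested.

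Within groups Reg3g varied with Reg3b from animal to animal, and Reg3a and Reg3d did so in some groups. Reg3b was correlated with each of the other 6 members in the 4 groups of days 3 and 7 on log2 CPM, 24 relations in all, and 8 passed an adjusted exact permutation p of 0.05 by Pearson's r. In KO on day 3 (n = 8) r was 0.94 (exact permutation p = 0.00035, adjusted p = 0.0083) and Spearman's rho 0.95 (p = 0.0011, adjusted p = 0.022, exact), and r was 0.93 without the 2 libraries farthest from the median of Reg3b. In WT on day 7 (n = 7) r was 0.95 (exact permutation p = 0.0032, adjusted p = 0.021) and rho 0.86 (p = 0.024, adjusted p = 0.052, exact), and r was 0.97 without 2 libraries. In KO on day 7 (n = 7) r was 0.89 (exact permutation p = 0.0036, adjusted p = 0.021) and rho 0.96 (p = 0.0028, adjusted p = 0.022, exact), and r was 0.98 without 2 libraries. The other Reg3g relation among the 8, in WT on day 3, is not read here, since those libraries fall into sets of 3 and 4 by Reg3b, too few for a correlation within each. Reg3d passed in KO on day 3 (r = 0.90, exact permutation adjusted p = 0.031) and on day 7 in WT (r = 0.89, exact permutation adjusted p = 0.036) and KO (r = 0.74, exact permutation adjusted p = 0.036), with rho of 0.84, 0.89 and 0.93 (exact permutation adjusted p = 0.045, 0.045 and 0.040). Without 2 libraries its r was 0.82, 0.68 and 0.76. Reg3a passed in WT on day 7 (r = 0.89, rho = 0.89, exact permutation adjusted p = 0.036 and 0.045), and r was 0.61 without 2 libraries. It did not pass in KO on day 3 (adjusted exact permutation p = 0.11) or on day 7 (adjusted exact permutation p = 0.0505). By rho 8 relations passed as well, with Reg1 in KO on day 3 in place of Reg3g in WT on day 7. For Reg1 there, rho was 0.83 and r 0.76 (exact permutation adjusted p = 0.046 and 0.061), and r was 0.81 without 2 libraries. Without the library labelled d3_KO_345, rho was 0.86 and did not pass (exact permutation adjusted p = 0.052).

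**Figure D4:**
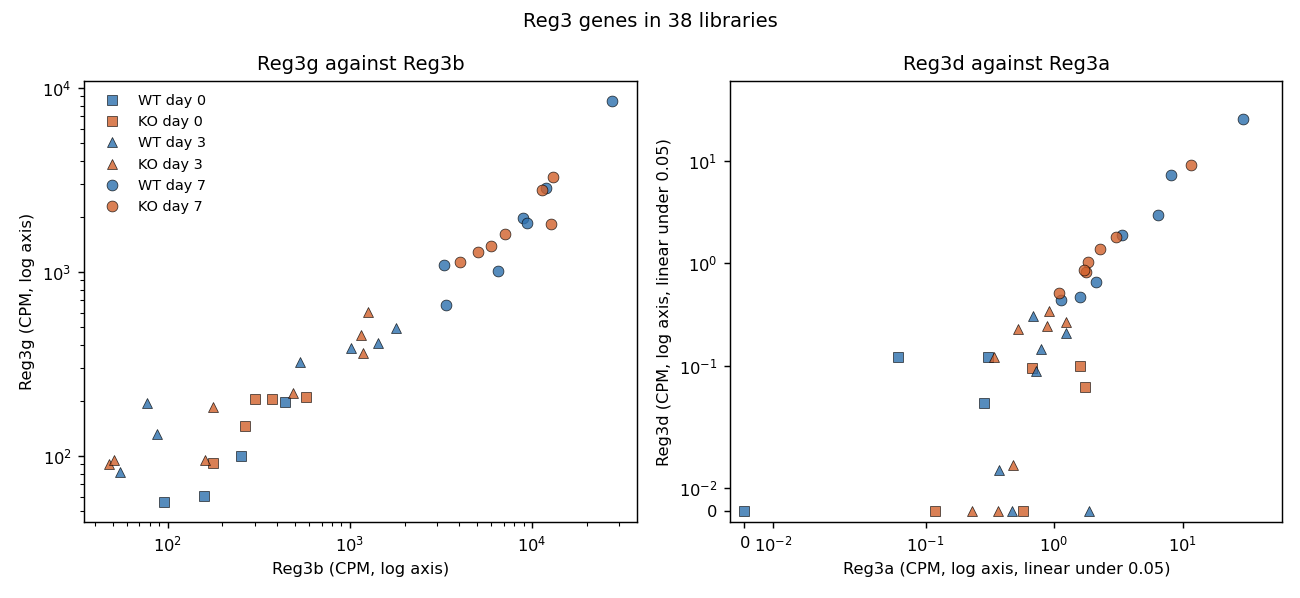
CPM of Reg3g against Reg3b (left) and of Reg3d against Reg3a (right) on log axes; each of the 38 points is a library, with colour for genotype and shape for day. Day 7 libraries lie at the upper right of both plots, and d7_WT_356 is the highest in each.

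With the group means subtracted, log2 CPM over the 29 DSS libraries gave r of 0.89 between Reg3b and Reg3g and 0.85 between Reg3a and Reg3d, as a description. Reg4 had negative values with the 4 Reg3 genes, from -0.41 to -0.29, and Reg1 had values between -0.28 and 0.24. The points share the library and its depth. By the same measure among 12849 genes, those most like Reg3b were Gda (guanine deaminase, r = 0.81), Clca4b (0.81) and Myot (0.80). For Reg3g they were Nucb2 (0.78), Duox2 (0.78), the epithelial oxidase that makes hydrogen peroxide, and Asns (0.77), asparagine synthetase. For Reg3d they were Card14 (0.82), Muc13 (0.81), a cell-surface mucin, and Stat3 (0.81), and for Reg3a Tmc5 (0.85), Lgmn (0.83), the protease legumain, and Sprr2h (0.81). For Reg4 they included Gm6086 (0.85) and RP23-446B17.3 (0.82), and for Reg1 they were 2310045N01Rik (0.74), Oat (0.73) and Coa4 (0.73).

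**Figure D5:**
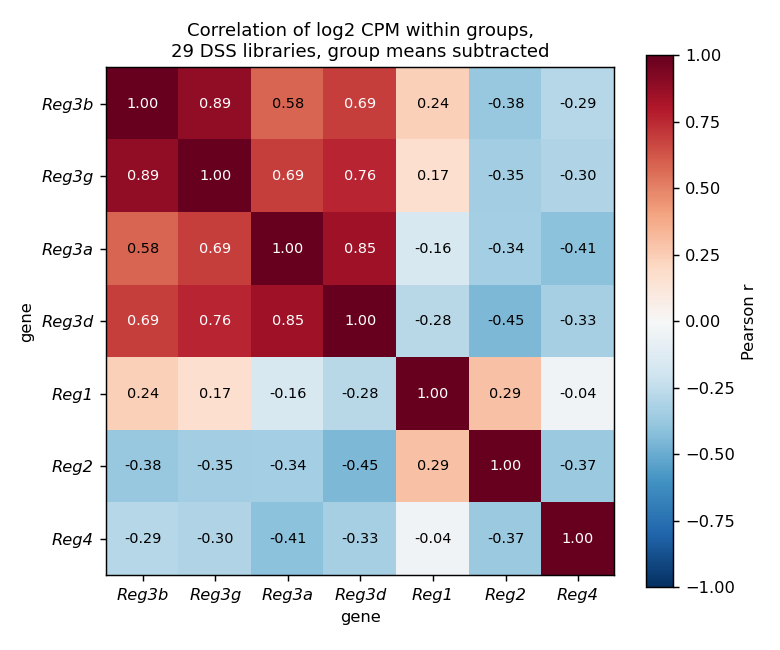
Pearson r of log2 CPM between each pair of Reg genes over the 29 DSS libraries after subtracting the mean of each genotype and day. The 4 Reg3 genes form a block of positive values from 0.58 to 0.89, and Reg2 and Reg4 have negative values with all 4.

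The known upstream pathway was read from a list of 34 genes of interleukin 22, interleukin 6 family, interleukin 17 and MYD88 signalling, with Extl3, a proposed Reg receptor. From day 3 to day 7 in WT, 13 of 30 tested rose and 2 fell (10.6% and 8.70% of all genes), with a median log2 fold change of 0.35 against 0.01 over all genes tested. In KO 11 of 30 rose and 2 fell (10.5% and 8.83% of all genes), with a median of 0.34 against -0.01. In WT those with the smallest adjusted p were Il1b (5.76 ± 0.64, adjusted p = 6.1e-05, edgeR), Osm (5.50 ± 0.65, adjusted p = 7.6e-05), Osmr (2.93 ± 0.45, adjusted p = 0.00039) and Nfkbiz (0.73 ± 0.14, adjusted p = 0.0023). Osm and Osmr encode oncostatin M and its receptor, which signals through STAT3. In KO they were Myd88 (0.40 ± 0.07, adjusted p = 0.0012, edgeR), Osmr (2.91 ± 0.55, adjusted p = 0.0013), Socs3 (1.39 ± 0.27, adjusted p = 0.0015), a STAT3 target that limits the signal, and Il1b (3.47 ± 0.73, adjusted p = 0.0029). Without the library labelled d3_KO_345, Osmr was at 3.67 and Il1b at 4.85 in KO. On day 7 in WT, Il1b and Osm were highest in d7_WT_419, which held 1079 CPM of the neutrophil genes. In KO on that day Osm was highest in d7_KO_420 (1832 CPM of these genes) and Il1b in d7_KO_422 (274 CPM). Which cells held these transcripts was not tested. Lifr and Il11ra1, receptors of leukemia inhibitory factor and interleukin 11, fell in both genotypes, Lifr by 2.21 ± 0.31 in WT (adjusted p = 0.00022, edgeR) and by 1.40 ± 0.37 in KO (adjusted p = 0.014).

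Among the cytokines, Il1b reached 312 CPM on day 7 in WT, whereas Il22 was sparse. Il22 had 0 counts in all 9 day 0 libraries, at most 6 counts in a library of day 3, and 3 to 29 counts on day 7, which is 0.0452 to 0.626 CPM. Il22ra1, the epithelial receptor subunit for interleukin 22, was at 23.0 ± 3.46 CPM in WT on day 3 and 26.8 ± 9.70 CPM on day 7. Its highest level on day 7 was in d7_WT_356 (43.4 CPM) and d7_KO_420 (68.8 CPM), the 2 libraries with the highest Reg3a and Reg3d of their groups. Extl3 was at 43.6 ± 6.80 CPM in WT on day 3 and 37.7 ± 5.44 CPM on day 7. Between day 0 and day 3, 9 of 28 genes of the list rose and 4 fell in WT, against 20.4% and 25.6% of all genes, and 11 and 2 of 26 in KO, against 22.6% and 23.7%. For day 7 against day 0 they were 14 and 4 of 31 in WT, against 27.8% and 29.2% of all genes, and 16 and 2 of 30 in KO, against 27.3% in each direction, with Socs3 at 3.24 ± 0.35 in WT (adjusted p = 5.3e-06, edgeR).

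Other antimicrobial and barrier genes were read from a list of 33. From day 3 to day 7, 17 of 30 tested rose and 3 fell in WT, against 10.6% and 8.70% of all genes, and 14 of 29 rose and 4 fell in KO, against 10.5% and 8.83%, with medians of 1.46 and 0.92 on the log2 scale. The genes with the smallest adjusted p were S100a8, S100a9, Nos2 and Chil3 in WT and Nos2, Ltf, Saa3 and Duox2 in KO, with Nos2 at 4.66 ± 0.59 in WT (adjusted p = 0.00012, edgeR; 3.94 without d7_WT_356) and 4.62 ± 0.38 in KO (adjusted p = 4.8e-06). Of the list, 6 genes are also in the marker lists, S100a8 and S100a9 for neutrophils among them. Mptx1, a mucosal pentraxin, Wfdc2, and Itln1, the lectin intelectin 1, fell in both genotypes, and Ang4 fell in KO. The call of Itln1 in WT (adjusted p = 0.038, edgeR) was lost in 9 of 14 fits without 1 replicate (adjusted p up to 0.095), which are those without d3_WT_352, d3_WT_381, d3_WT_486 or any 1 of the day 7 libraries other than d7_WT_370. It was also lost in the fit of all 38 libraries (0.33) and on lane 1 alone (0.080). Mptx1 fell by 5.29 ± 1.18 in WT (adjusted p = 0.0058, edgeR) and by 8.16 ± 1.04 in KO (adjusted p = 6.9e-05), and its log2 change was -6.11 in WT without d7_WT_386 and between -8.97 (without d7_KO_421) and -7.43 (without d3_KO_350) in KO. Day 3 against day 0 gave 4 of 28 that rose and 2 that fell in WT and 5 and 1 of 25 in KO, each below the share of all genes (20.4% and 25.6% in WT, 22.6% and 23.7% in KO), and day 7 against day 0 gave 21 and 2 of 31 (27.8% and 29.2% of all genes) in WT and 18 and 5 of 30 in KO (27.3% in each direction). Between KO and WT 0 genes of either list were called by edgeR on any day. At an unadjusted p under 0.05 (edgeR), day 0 had 0 of 23 pathway genes, 3 of 23 defence genes and 1563 of all 14944 genes. Day 3 had 5 of 28, 8 of 26 and 1218 of 15461, and day 7 had 6 of 31, 4 of 30 and 2017 of 15584. With DESeq2, Bcl3 of the pathway list was called on day 7 and Defb37 of the defence list on day 0, 1 gene in each, named here after the values were seen.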

How the data were processed

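Epithelial RNA sequencing libraries of 38 mice were analysed. The authors deposited raw whole-number counts for every gene, without scaling. Per the file headers, they were made with featureCounts 1.6.2 on read pairs with strand ignored. The submitters' processing notes name Trim Galore, STAR, GRCm38 and featureCounts 1.5.2. The counts of both lanes of a library were added up (correlation between lanes at least 0.989).

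Tests used the quasi-likelihood test of edgeR 4.0.16 under R 4.3.3 with TMM scaling and its filter on low counts, on the compared groups alone, called at a Benjamini-Hochberg adjusted p under 0.05 over all genes tested. The standard error is the absolute log2 fold change over the root of F. CPM levels are TMM-scaled over all 38 libraries, and log2 CPM used a prior count of 2. Correlations used exact two-sided permutation tests, adjusted over 24 relations. The script was tested on simulated counts. The members and lists were chosen with earlier results of these data known. All 7 members were named in each comparison, with up to 4 genes of smallest adjusted p per list and direction, of which the text gives some, and the 3 genes most like each member with a mean of at least 1 CPM, of which 1 is not reported here. Alternatives were DESeq2 1.42.0 (size factors or Wald test), other filters, robust dispersions, a fit of all 38 libraries, lane 1 alone, removal of mitochondrial-genome genes, a small intestine covariate, a prior count of 0.5, and leaving out each replicate. Promoter windows and their letters come from RefSeq (7 of 7 members matched).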

Additional observations from a re-analysis of the deposited data

Results flagged for a closer look

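In 9 of 42 groups of 4 to 8 libraries, the highest level of a Reg gene stood apart from the others by Dixon's 95% criterion. Chance meets it in about 1 in 20 groups of independent, normally distributed values. The CPM used here are not on a log scale and the 42 groups share libraries, so the 9 cannot be set against that rate. On day 7 in WT, d7_WT_356 stood apart for all 4 Reg3 genes, with 27367 CPM of Reg3b (next library 11925 CPM), 8481 CPM of Reg3g (next 2860 CPM), 29.5 CPM of Reg3a (next 8.14 CPM) and 25.7 CPM of Reg3d (next 7.23 CPM). On day 7 in KO, d7_KO_420 stood apart for Reg3a at 11.7 CPM (next 3.05 CPM) and for Reg3d at 9.08 CPM (next 1.82 CPM), and its Reg3b level, 12707 CPM, was within the group's range. These 2 libraries also held the highest neutrophil marker sums of their groups, 1102 and 1832 CPM, and the highest Hk2 levels of their groups, 611 and 268 CPM. What part these have in the Reg3 levels was not tested.

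The other 3 flags concern low counts. Reg1 was at 1.95 CPM in d3_KO_387 (58 counts; next library 1.15 CPM). Reg2 was at 0.873 CPM in d0_KO_53 (14 counts; next 0.127 CPM) and at 0.331 CPM in d7_WT_370 (18 counts; next 0.129 CPM).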

How the results depend on the processing

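The rise of Reg3a, Reg3b and Reg3g from day 3 to day 7 kept its call in both genotypes under all alternatives run, and so did that of Reg3d except on lane 1 alone in WT, where it was not tested. The range of log2 fold changes without 1 replicate was 3.33 to 4.23 for Reg3b in WT and 3.69 to 4.15 in KO. The number of members called on day 7 against day 3 in WT was 5, and 3 on lane 1 alone, where 2 members were no longer tested. From day 0 to day 3 in WT the 5 members called became 2 with a mean CPM of at least 1 and 3 in the fit of all 38 libraries. In KO the 1 member called became 0 with DESeq2 size factors, with a mean CPM of at least 1 and on lane 1 alone, and 2 with no filter, with a range of 0 to 1 without 1 replicate (0 without d0_KO_24, d0_KO_53, d0_KO_54 or d0_KO_60). From day 0 to day 7 in KO the 5 members called became 3 on lane 1 alone, with a range of 3 to 4 without 1 of the day 0 replicates (3 without d0_KO_24, d0_KO_32 or d0_KO_54, and 4 without d0_KO_53 or d0_KO_60). The cause was not tested.

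Values that changed sign were never past the threshold. Without 1 replicate, KO over WT on day 3 ranged from -0.44 to 0.19 for Reg1 (highest without d3_WT_381), from -0.62 to 0.084 for Reg3b and from -0.43 to 0.052 for Reg3g (both highest without d3_WT_486). On day 7 it ranged from -0.24 (without d7_KO_423) to 0.38 for Reg1, from -0.40 to 0.21 for Reg3b and from -0.61 to 0.26 for Reg3g (both highest without d7_WT_356). For Reg1 on day 7 against day 3 in WT, the values without 1 replicate ranged from -0.20 to 0.45. The interaction of Reg3d from day 0 to day 7 was 2.66 on lane 1 alone. No paired analysis was possible because no animal number is shared between groups. Depth limits Reg2 and Reg3d most: 3 counts correspond to 0.0495 to 0.286 CPM in the libraries examined.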
